A study of Mus musculus with 14 samples.

Results

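The unfolded protein response genes described here are Ern1, Atf6, Xbp1, Atf4, Ddit3, Hspa5, Pdia4, Sdf2l1, Dnajb9 and Herpud1. They were taken by symbol from the deposited expression table, as 10 of its 46855 genes. RNA was sequenced from whole ileum, the last stretch of the small intestine, of C57BL/6N mice, an inbred wild-type strain. The untreated groups were 4 mice at postnatal day 24 (P24), around weaning, and 4 suckling mice at day 14 (P14). Injected groups were 3 mice given recombinant mouse interleukin-22 (rmIl22), a cytokine that acts on epithelium, and 3 mice given phosphate-buffered saline (PBS). These mice received 0.1 µg rmIl22 per g body weight, or only the 100 µL of PBS, into the peritoneum on days 14 and 15, and tissue was taken on day 16 according to the protocol. The age field disagrees with that: it reads day 24 for mice given rmIl22 and day 14 for those given PBS.

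The unfolded protein response matches the folding capacity of the endoplasmic reticulum (ER) to its load of new secretory and membrane proteins. Its sensors sit in the ER membrane. IRE1, encoded by Ern1, splices Xbp1 mRNA so that an active transcription factor is made. ATF6 is cut free and acts in the nucleus. PERK slows translation through eIF2 alpha, which favours translation of Atf4, and ATF4 activates Ddit3. Hspa5, Pdia4, Sdf2l1, Dnajb9 and Herpud1 encode proteins that fold or remove ER proteins. In the intestine the pathway is best known from goblet and Paneth cells, which secrete mucins and antimicrobial proteins. Splicing of Xbp1 and cleavage of ATF6 are not read by a table of RNA levels per gene.

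ATF6, XBP1 and ATF4 act through short promoter elements, and letters matching such elements are shown here for the genes that held them. RefSeq promoters (GRCm38.p6, 250 bases before to 50 after the start) were at hand for 9 of the 10 genes. The 120 bases before the RefSeq start are printed for both promoters that held a searched motif, with the motif letters in capitals. They lie at chr2:34771970-34772089 (Hspa5) and chr8:94386309-94386428 (Herpud1), both on the plus strand.
Hspa5: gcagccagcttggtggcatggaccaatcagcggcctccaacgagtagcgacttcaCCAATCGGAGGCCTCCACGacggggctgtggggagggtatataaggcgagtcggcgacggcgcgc
Herpud1: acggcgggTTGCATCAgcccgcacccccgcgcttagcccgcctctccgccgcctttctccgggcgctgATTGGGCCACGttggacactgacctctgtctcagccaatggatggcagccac
The capitals of Hspa5 match the ER stress response element, CCAAT and CCACG with 9 free bases between them, from -65 to -47 relative to the start. This motif was found in 0.119% of 32851 promoters of the same length. In Herpud1, the capitals nearer the start match its variant ERSE-II, ATTGG and CCACG with 1 free base between them, from -52 to -42, which 0.0365% of promoters held. Herpud1 also held TTGCATCA, the core of the element bound by ATF4 with C/EBP partners, from -112 to -105, which 0.895% of promoters held. The core TGACGTGG, a site known for XBP1, was found in 0 of the 9 promoters and in 0.676% of all promoters. Both strands were searched, all matches lay on the strand of the gene, and they do not overlap each other. A match describes letters in this window and does not show that a factor binds there.

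Libraries held 35.6 to 46.5 M reads assigned to genes (median 42.7 M), so that the least read member, Ddit3, still had 323 to 1602 reads. Values are TPM, a share of all transcripts in a library after scaling for gene length. The median gene of the age comparison had a log2 fold change of -0.25, and 0.02 once each library was scaled to the same median TPM, so age results are given on both scales. Of the rmIl22 libraries, library 2 stood apart in its read counts: its reads differed from the other libraries of its group with a chi-square per gene of 222 to 255, against 30.9 to 78.0 in all other pairs within groups. By another measure it did not stand apart from all libraries. Its median absolute log2 deviation from the group mean was 0.173, close to 0.171 and 0.165 in P14 libraries 4 and 5. Its summed goblet cell markers (9 genes) stood at 8219 TPM, against 13409.6 and 14776 TPM in the other rmIl22 libraries and 8023 to 10105 TPM with PBS. Its 9 epithelial and ileal markers summed to 6860 TPM, against 14042 and 18308 TPM in the other rmIl22 libraries and 6656 to 8679 TPM with PBS. Its 9 neuron, muscle and fibroblast markers summed to 867 TPM, against 1639 and 2509 TPM in the other rmIl22 libraries and 1433 to 1849 TPM with PBS. Within the epithelial and ileal sum, Fabp6 ranged from 1663 to 9878 TPM and Krt8 from 1576 to 3352 TPM over the rmIl22 libraries. Epcam ranged there from 2099 to 2668 TPM and Cdh1 from 214 to 227 TPM, so that sum does not measure the amount of epithelium. The part of these cell types in the rmIl22 results was not tested. The sex of the mice is not in the labels. Xist, which is transcribed from the inactive X chromosome of female cells, was at 28.4 to 73.0 TPM in some libraries and at 0.07 to 0.16 TPM in the others. High-Xist libraries were 3 of 4 at P24, 2 of 4 at P14, 2 of 3 with rmIl22 and 0 of 3 with PBS.

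All 10 genes were expressed in every library, and all met the expression filter in both comparisons. Hspa5, which encodes the ER chaperone BiP, had the highest level in all 4 groups, with 311 ± 18.6 TPM at P24, 445 ± 93.6 TPM at P14, 355 ± 147 TPM with rmIl22 and 541 ± 111 TPM with PBS (mean ± SD, n = 4, 4, 3 and 3). Its mean at P24 lay above that of 97.9% of the genes tested. Atf4, Xbp1, Pdia4, Herpud1 and Sdf2l1 followed, with group means between 95.6 and 215 TPM and an order that changed between groups. Their SDs were up to 52.7 TPM, so neighbours within this block were not separated by their spread in every group. Dnajb9 came next in each group, at 49.0 to 80.6 TPM. The sensors stood at the low end, Atf6 at 18.1 to 19.6 TPM and Ern1 at 6.00 to 8.09 TPM. Ddit3 ranked above Atf6 at P14, with rmIl22 and with PBS, but below it at P24, where Ddit3 averaged 12.1 ± 2.02 TPM and Atf6 19.6 ± 1.06 TPM.

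**Figure D1:**
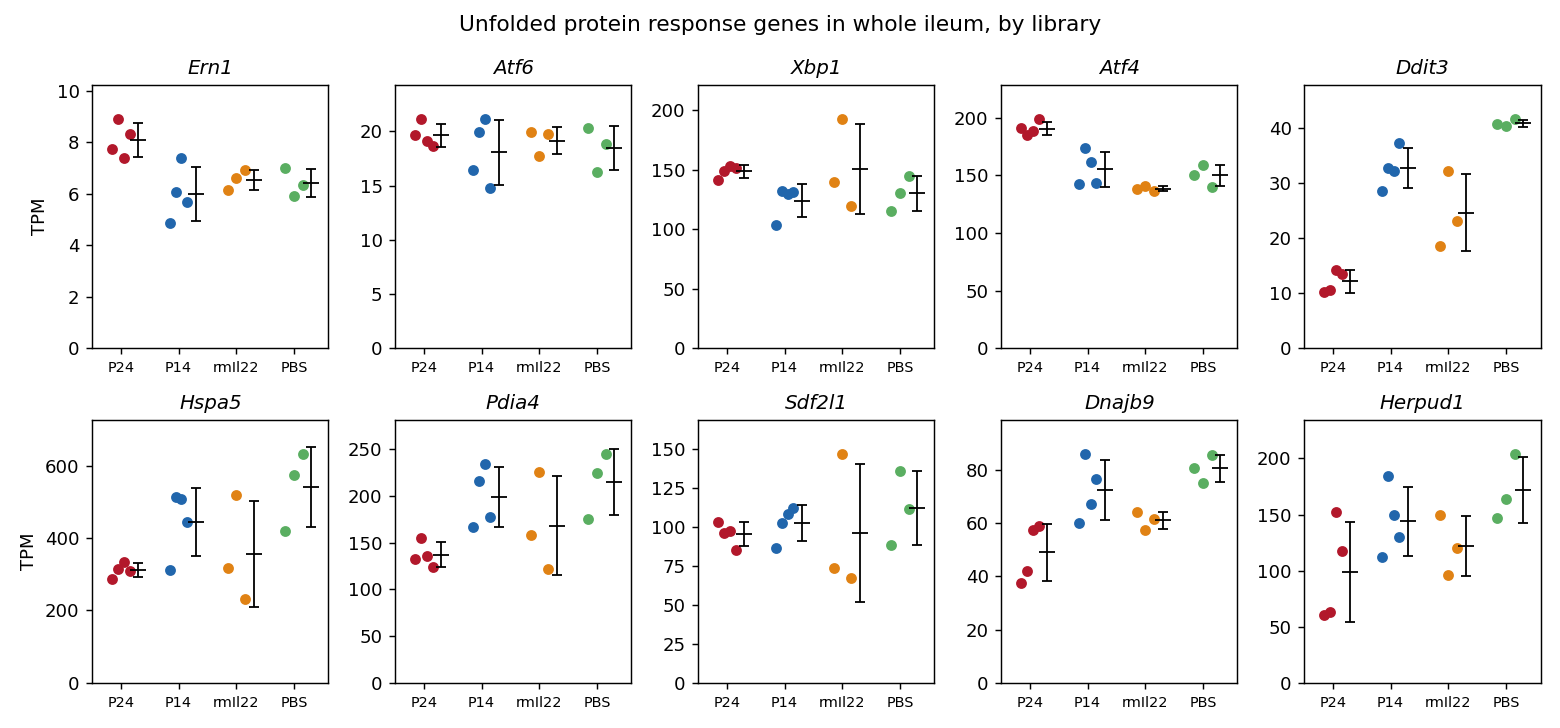
Level of each gene in TPM (vertical axes, starting at 0) in the 14 libraries, grouped as P24, P14, rmIl22 and PBS; points are libraries, and bars are the mean ± SD. Ddit3 was at 10.2 to 14.2 TPM in the P24 libraries and at 28.5 to 37.3 TPM in the P14 libraries, and the rmIl22 points of Hspa5, Xbp1, Pdia4 and Sdf2l1 include one high library, library 2.

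The first comparison asked how the genes stood at P24, after the onset of weaning, against P14. Ddit3 was lower at P24 and Atf4 was higher, on either scale and under every alternative tried. Ern1 and Xbp1 were also higher at P24, with calls that were lost under some alternatives. The chaperone genes Hspa5, Pdia4 and Dnajb9 were lower as a share of all transcripts, and did not pass the test relative to the median gene. In counts, 3 of the 10 genes rose, 4 fell and 3 did not pass the test, whereas 14.6% of all 14651 genes tested rose and 43.7% fell. On median-scaled TPM, 4 rose and 1 fell, with 29.5% and 28.3% of all genes. The median log2 fold change of the 10 genes was -0.29, and 0.02 on median-scaled TPM. In whole tissue, fewer cells of a type and less RNA per cell cannot be told apart.

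Ddit3 encodes CHOP, a transcription factor of prolonged ER stress (mm10 chromosome 10, 127290774 to 127296288, plus strand). It had 10.2, 10.6, 14.2 and 13.5 TPM in P24 libraries 1, 2, 6 and 8, against 28.5, 32.8, 32.1 and 37.3 TPM in P14 libraries 1, 2, 4 and 5. The highest P24 library was thus below the lowest P14 library. The log2 fold change was -1.37 (SE 0.13, 95% interval -1.64 to -1.09, adjusted p = 3.48e-06), and -1.08 (adjusted p = 0.000194) on median-scaled TPM. The authors' deposited table gave a log2 fold change of -1.13 (adjusted p = 1.82e-07). The annotation used here for coordinates lists a second gene with the symbol Ddit3 inside the first, on the same strand (127290829 to 127293753). How reads shared by such genes were counted is not given in the sources used here. Exons under the symbol Ddit3 share 68 of 1713 bases with Mars on the other strand, and whether strand was used in counting is not given either. Mars, with 17.7 ± 1.33 TPM at P24 against 19.4 ± 2.78 TPM at P14, did not pass the test (adjusted p = 0.394). It was chosen because it overlaps.

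Atf4, the transcription factor that acts upstream of Ddit3 in the PERK branch, went the other way. It had 191, 185, 188 and 199 TPM in the P24 libraries, against 143, 174, 161 and 143 TPM in the P14 libraries. No P14 library reached the lowest P24 library. The log2 fold change amounted to 0.30 (SE 0.09, adjusted p = 0.0167), and to 0.61 (adjusted p = 0.000134) on median-scaled TPM. Ratios of the group means, P24 over P14, were 1.23 for Atf4 and 0.371 for Ddit3.

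Ern1, the sensor kinase and nuclease, had 7.75, 8.89, 7.40 and 8.34 TPM in the P24 libraries, against 4.85, 6.07, 7.38 and 5.70 TPM in the P14 libraries. The groups were separate, though P24 library 6 and P14 library 4 nearly met. The log2 fold change of Ern1 came to 0.39 (SE 0.12, adjusted p = 0.0188), and to 0.66 (adjusted p = 9.9e-05) on median-scaled TPM. The call was lost without P14 library 1 (adjusted p = 0.0564) or without P24 library 2 (0.0588). Xbp1, the substrate of this nuclease, had 141, 149, 153 and 151 TPM in the P24 libraries, against 104, 132, 129 and 131 TPM in the P14 libraries. The P24 libraries were all above the P14 libraries, among which library 1 was lowest. The log2 fold change of 0.27 (SE 0.10, adjusted p = 0.0372) was 0.18 without P14 library 1 (adjusted p = 0.104). That call was also lost without any single P24 library (adjusted p from 0.0522 to 0.0971), without an intensity trend (0.0513), in a fit of all 14 libraries (0.101) and with a term for Xist level (0.0719). Median-scaled TPM gave Xbp1 a log2 fold change of 0.57 (adjusted p = 0.00115). Atf6, the sensor that is itself a transcription factor, had 19.6 ± 1.06 TPM at P24 and 18.1 ± 2.96 TPM at P14, with overlapping groups. Its log2 fold change was 0.13 (95% interval -0.13 to 0.38, adjusted p = 0.374), and on median-scaled TPM it was 0.42 and passed the test (adjusted p = 0.0011).

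Hspa5 had 288, 315, 333 and 310 TPM in the P24 libraries, against 313, 514, 509 and 444 TPM in the P14 libraries. P14 library 1 lay among the P24 values, so the groups overlapped. Hspa5 had a log2 fold change of -0.49 (SE 0.15, adjusted p = 0.0151), a call lost in a fit of all 14 libraries (0.0716) and without P14 library 4 (0.0502). Pdia4, a protein disulfide isomerase, had 132, 156, 136 and 124 TPM in the P24 libraries, against 167, 217, 235 and 177 TPM in the P14 libraries. Every P24 value was below every P14 value (log2 fold change -0.52, SE 0.12, adjusted p = 0.00368). Dnajb9, a J-domain co-chaperone of BiP, had 37.5, 42.2, 57.5 and 58.9 TPM in the P24 libraries, against 59.9, 86.0, 67.3 and 76.7 TPM in the P14 libraries. The groups were separate by a small margin (log2 fold change -0.57, SE 0.16, adjusted p = 0.00976). On median-scaled TPM none of these 3 genes passed: the log2 fold changes were -0.18 for Hspa5 (adjusted p = 0.305), -0.22 for Pdia4 (0.0972) and -0.26 for Dnajb9 (0.221). The authors' deposited table likewise gave -0.19, -0.21 and -0.26, with adjusted p = 0.573, 0.433 and 0.195. The adjusted p ranged over all alternatives from 0.000288 to 0.573 for Hspa5, from 0.00144 to 0.433 for Pdia4 and from 0.00409 to 0.221 for Dnajb9.

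Sdf2l1 encodes an ER protein that works with BiP and its J-domain partners. It had 95.6 ± 7.70 TPM at P24, against 103 ± 11.5 TPM at P14. Its log2 fold change of -0.10 (95% interval -0.33 to 0.14, adjusted p = 0.453) turned to 0.21 on median-scaled TPM (adjusted p = 0.183). Herpud1, an ER membrane protein of the degradation machinery, had 60.7, 63.3, 152 and 118 TPM in the P24 libraries, against 112, 184, 149 and 130.2 TPM in the P14 libraries. P24 libraries 1 and 2 were below the whole P14 range, and libraries 6 and 8 were inside it. Its log2 fold change of -0.63 (SE 0.27, adjusted p = 0.0649) passed the test without P14 library 1 (0.0409), P24 library 6 (0.00757) or P24 library 8 (0.0369), and with a term for Xist level (0.0484). Median-scaled TPM gave -0.32 (adjusted p = 0.369).

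Of the 10 genes, 3 had P24 libraries all above and 3 all below the P14 libraries, whereas 13.0% and 39.4% of all genes tested did. In the authors' deposited table, 4 of the 10 genes rose (Ern1, Atf4, Xbp1 and Atf6) and Ddit3 fell, at an adjusted p under 0.05. That table called 20.2% of its 23529 genes higher and 20.1% lower.

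**Figure D2:**
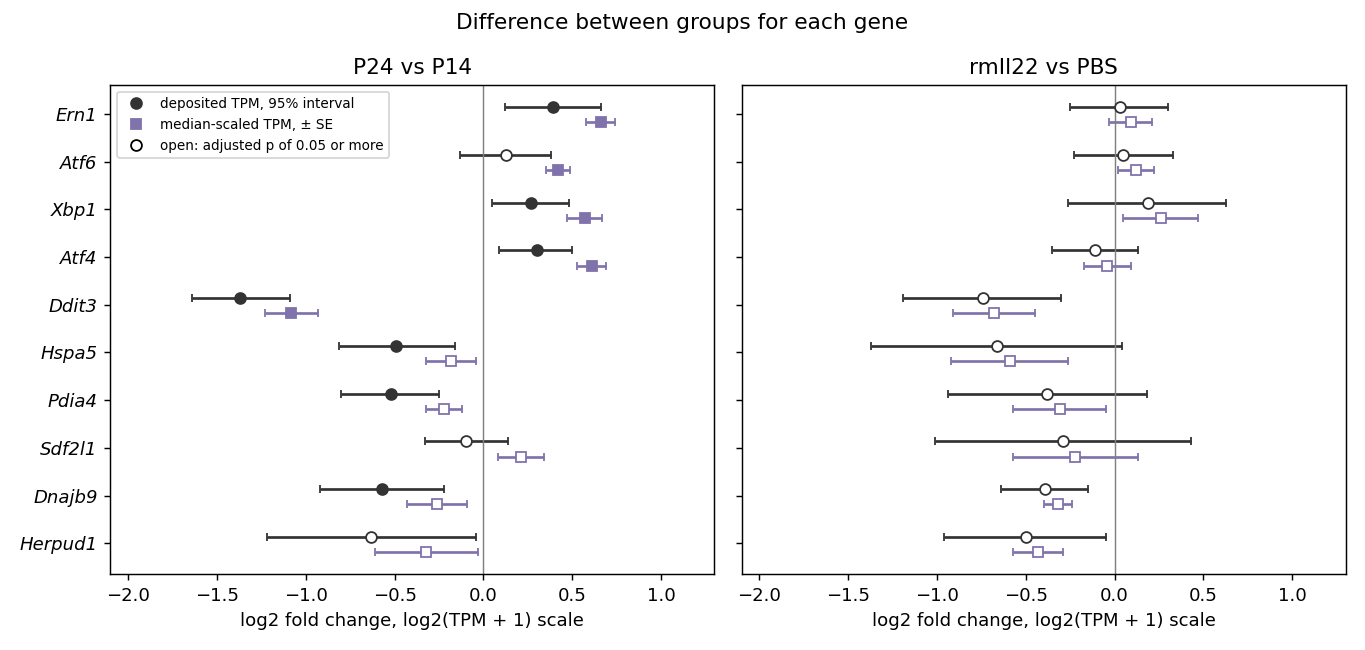
Log2 fold change of each gene, P24 over P14 (left) and rmIl22 over PBS (right), on the log2(TPM + 1) scale; circles are deposited TPM with 95% intervals, squares are median-scaled TPM with SE, and open symbols did not pass the test. In the left panel the squares sit to the right of the circles, and 5 of the 10 squares are filled, with Ddit3 alone on the negative side; in the right panel no symbol is filled.

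Secretory cell markers moved with age as well. All 9 Paneth cell markers were higher at P24, with a summed level of 28244 to 30052 TPM at P24 and 4973 to 7764 TPM at P14. Among 9 goblet cell markers 6 were higher and 0 lower, with sums of 15634 to 17518 TPM at P24 and 5775 to 7376 TPM at P14. Retnlb, a goblet cell product, was at 0 in some P14 libraries, whereas Tff3 averaged 4194 ± 451 TPM and Muc2 119 ± 101 TPM at P14. Muc2, Fcgbp and Spdef did not pass the test (adjusted p = 0.556, 0.584 and 0.227). Plasma cell markers summed to 187 to 529 TPM at P24 and 142 to 158 TPM at P14, with 4 of 8 tested higher and Prdm1 lower. Most of the sum at P14 was Sdc1 (76.7 TPM on average) and Prdm1 (35.5 TPM). Igha averaged 1.51 TPM at P14 and 29.0 ± 17.6 TPM at P24, and Jchain 0.722 TPM and 15.8 ± 12.8 TPM. Prdm1 fell while Igha rose, so this sum is not taken as a measure of plasma cells. Of 9 neuron, muscle and fibroblast markers 6 were lower and 1 was higher, and the summed levels overlapped (1229 to 1779 TPM at P24, 1297 to 2684 TPM at P14). Of 9 epithelial and ileal markers 5 were higher and 0 lower. Only 2 of 10 pancreatic acinar markers met the filter, and 4 were at 0 in all P24 libraries and 3 in all P14 libraries. The part of these cell types in the results on the 10 genes was not tested.

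Other genes of the ER and of stress signalling were counted in lists, beside 14.6% of all genes tested that rose at P24 and 43.7% that fell. Whether a list differed from these shares was not tested. Among 12 further sensors and regulators 1 rose and 5 fell (median log2 fold change -0.18). The gene that rose was Ern2, the IRE1 form of mucosal epithelium, with 12.7 ± 1.49 TPM at P24 and 8.34 ± 1.67 TPM at P14 (log2 fold change 0.56, adjusted p = 0.00436). Creb3l3, an ER-bound transcription factor of liver and intestine, fell to 44.0 ± 8.86 TPM at P24, against 225 ± 51.4 TPM at P14 (log2 fold change -2.32). Creb3l2, a related factor, also fell (-0.84). Eif2ak3, which encodes PERK and is named only as the third sensor after its values were seen, did not pass (-0.20, adjusted p = 0.121).

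ER chaperones and folding enzymes also held rises and falls. Of 23 listed, 22 were tested, 4 rose and 7 fell (median -0.14). Agr2, a disulfide isomerase needed for mucin production, had 1169 ± 25.6 TPM at P24 and 504 ± 74.1 TPM at P14 (log2 fold change 1.22, adjusted p = 5.79e-06), and the prolyl isomerase Fkbp11 rose by 0.83. The largest falls were in Sil1, the nucleotide exchange factor of BiP (-1.03), and in Ero1l, the oxidase that supplies disulfide isomerases (-0.87). In ER-associated degradation 2 of 16 tested genes rose and 6 fell (median -0.10). Syvn1, the ubiquitin ligase HRD1, rose by 0.73, whereas Sel1l, its partner in the same complex, fell (-0.76). Edem1, which hands misfolded glycoproteins to degradation, rose by 0.52, and Ubxn4, an adaptor of the ATPase VCP, fell (-0.82).

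For ER translocation and signal peptide processing, 4 of 21 tested genes rose and 3 fell (median -0.01). Sec11c, a signal peptidase subunit, rose by 0.86 and Sec61b, a translocon subunit, by 0.72, while Sec62, another translocation factor (-0.85), and Srp68, a signal recognition particle subunit (-0.68), fell. Targets of the integrated stress response, the arm that runs through eIF2 alpha and ATF4, gave 7 rises and 7 falls among 21 tested (median 0.02). Atf3, an early stress transcription factor, had 122 ± 27.2 TPM at P24 and 16.1 TPM at P14 on average (log2 fold change 2.87, adjusted p = 6.91e-07). Ppp1r15a, the phosphatase subunit GADD34 that reverses eIF2 alpha phosphorylation, rose to 16.9 ± 1.47 TPM at P24, against 7.19 TPM at P14. Sesn2, a stress-induced regulator of mTORC1, fell (-1.80), as did the ATF4-related factor Atf5 (-1.06).

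The other eIF2 alpha kinases and core genes gave 0 rises and 4 falls among 7 (median -0.42), led by Impact, an inhibitor of the kinase GCN2 (-1.09), and Eif2ak4, which encodes GCN2 (-0.73). Cytosolic heat shock genes, a stress response outside the ER, gave 1 rise and 3 falls among 13 (median -0.13). Bag3, a co-chaperone, rose by 0.75 and the constitutive chaperone Hspa8 fell (-0.92). The fall of Hsp90ab1 (-0.31, adjusted p = 0.0298) was not seen on median-scaled TPM (0.00, adjusted p = 0.98). That scale gave 10 rises and 3 falls for ER chaperones, 7 and 4 for degradation, 14 and 2 for translocation, 12 and 6 for integrated stress response targets, 4 and 4 for sensors and regulators, 2 and 3 for other eIF2 alpha kinases, and 1 and 1 for heat shock genes. On median-scaled TPM, 29.5% of all genes tested rose and 28.3% fell. All other called genes named from these lists kept their call on that scale.

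**Figure D3:**
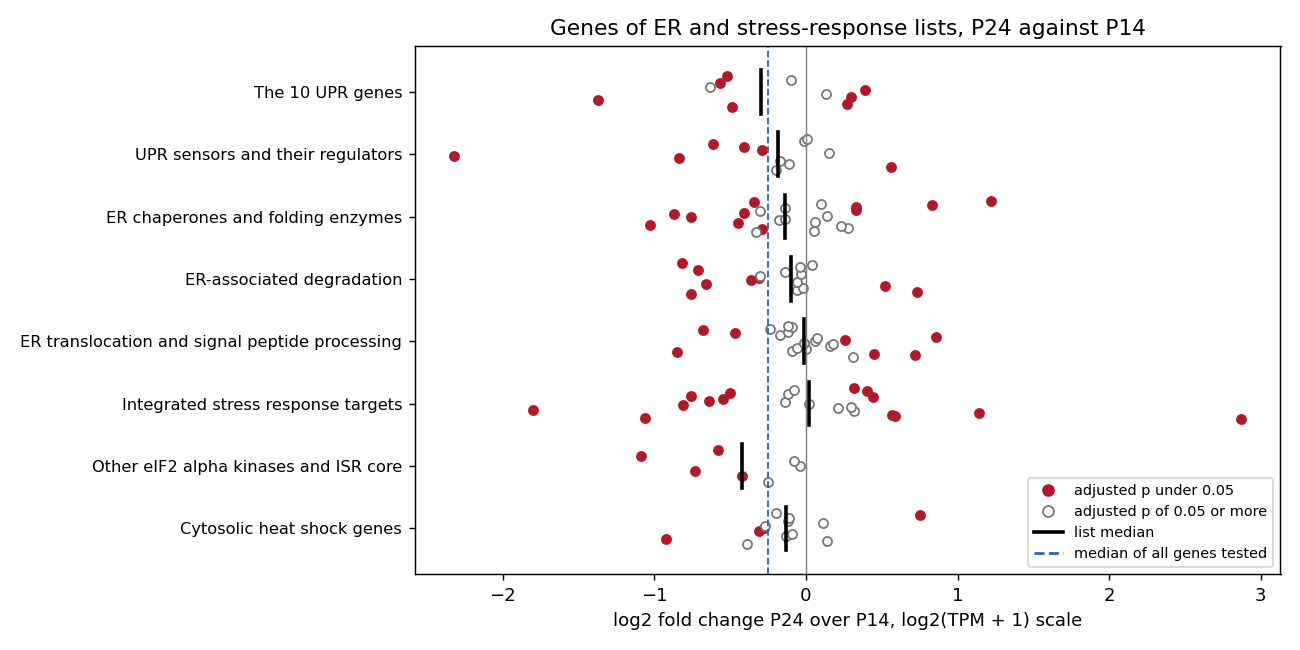
Log2 fold changes, P24 over P14, of the genes tested in each list (rows); filled points passed the test, black bars are list medians and the dashed line is the median of all genes tested, -0.25. Every list except the other eIF2 alpha kinases and core genes holds both rises and falls, and list medians lie between -0.42 and 0.02.

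The second comparison asked what injected rmIl22 changed in mice not yet weaned. None of the 10 genes passed the test, whereas 0.443% of 14456 genes rose and 2.25% fell, and limma voom on recovered reads called 0 of the 10 too. At an unadjusted p under 0.05 there were 3, namely Ddit3, Dnajb9 and Herpud1. The estimates were below 0 for 7 genes and above 0 for 3, with a median of -0.34, against -0.05 for all genes tested. All rmIl22 libraries lay below all PBS libraries for Ddit3 and Dnajb9, 2 of the 10 genes, and 15.4% of all genes tested had that order, while 0 of the 10 and 5.62% of all genes had the opposite one. The authors' deposited table for this comparison lists 1102 genes, with adjusted p of at most 0.00999, and none of the 10 genes is among them.

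Ddit3 had 18.5, 32.2 and 23.1 TPM in rmIl22 libraries 1, 2 and 3, against 40.7, 40.4 and 41.6 TPM in PBS libraries 1, 2 and 3. The PBS libraries were nearly equal, and the rmIl22 libraries were lower and spread out. The estimated log2 fold change was -0.74 (SE 0.19, 95% interval -1.19 to -0.30, adjusted p = 0.0982). It passed the test without rmIl22 library 2 (-0.95, adjusted p = 0.00337) and in a fit of all 14 libraries (-0.74, 0.0165). Over the alternatives the adjusted p lay between 0.00337 and 0.341.

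Dnajb9 had 64.2, 57.6 and 61.5 TPM in the rmIl22 libraries, against 80.8, 75.3 and 85.7 TPM in the PBS libraries. The groups were separate, with a log2 fold change of -0.39 (95% interval -0.64 to -0.15, adjusted p = 0.112, range 0.0968 to 0.507). Herpud1 had 149, 95.9 and 119.9 TPM in the rmIl22 libraries, against 147, 164 and 204 TPM in the PBS libraries. The groups overlapped through rmIl22 library 1 (log2 fold change -0.50, 95% interval -0.96 to -0.05, adjusted p = 0.272).

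Hspa5 had 317, 517 and 232 TPM in the rmIl22 libraries, against 418, 574 and 632 TPM in the PBS libraries. Library 2 lay inside the PBS range, and the other rmIl22 libraries lay below it. The log2 fold change was -0.66 (95% interval -1.37 to 0.04, adjusted p = 0.357), and without library 2 it was -0.97 and passed the test (adjusted p = 0.0227). In the other 13 of 14 alternatives Hspa5 did not pass, with adjusted p up to 0.781. Pdia4 (158, 225 and 122 TPM with rmIl22, against 176, 225 and 245 TPM with PBS) and Sdf2l1 (73.8, 147 and 67.5 TPM with rmIl22, against 88.6, 136 and 112 TPM with PBS) had the same order of rmIl22 libraries. Their intervals were -0.94 to 0.18 for Pdia4 and -1.01 to 0.43 for Sdf2l1. Without library 2, the whole comparison called 455 genes higher and 874 lower, against 64 and 325 with it.

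The remaining genes of the group gave small estimates. Xbp1 had 139.9, 192 and 119 TPM in the rmIl22 libraries, against 115, 130.1 and 144 TPM in the PBS libraries, with a log2 fold change of 0.19 (95% interval -0.26 to 0.63). Atf4 had 138, 141 and 136 TPM with rmIl22, against 151, 159 and 140.0 TPM with PBS (-0.11, 95% interval -0.35 to 0.13). For Atf6 the log2 fold change was 0.05 (95% interval -0.23 to 0.33) and for Ern1 0.03 (-0.25 to 0.30). These intervals include the log2 fold change seen with age for Xbp1 (0.27) and Atf6 (0.13), but not those for Ern1 (0.39) and Atf4 (0.30). The age estimates carry their own error, so this does not test whether both effects differ. That difference was tested separately, and for Ern1 it did not pass (adjusted p = 0.125).

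Since all PBS libraries were low in Xist and only library 1 of the rmIl22 libraries was, sex and treatment can be told apart only through that library. With a term for Xist level, the log2 fold changes were -1.10 for Ddit3 (adjusted p = 0.0664), -0.75 for Hspa5, -0.32 for Dnajb9, -0.57 for Sdf2l1 and -0.19 for Herpud1, and 0 of the 10 genes passed. That fit called 42 genes higher and 80 lower. Goblet markers had 0 of 9 and Paneth markers 0 of 9 called between rmIl22 and PBS, with Paneth sums of 10365 to 12765 TPM with rmIl22 and 11564 to 14686 TPM with PBS. None of the genes tested in the 7 other pathway lists was called, and their median log2 fold changes ran from -0.18 to -0.01. Among all cell type markers only Clps, a pancreatic colipase, passed (-0.73, adjusted p = 0.0416), a call lost in 9 of 15 alternatives. The sums of acinar markers were 64.5 to 70.6 TPM with rmIl22 and 92.8 to 133 TPM with PBS. Most of each sum was Clps, with 51.4 ± 4.77 TPM with rmIl22 and 86.2 ± 11.6 TPM with PBS. Of the 10 acinar markers, 7 averaged under 1 TPM in either group, and 1 was at 0 in all rmIl22 libraries and 5 in all PBS libraries. These sums therefore do not measure acinar tissue.

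The difference between both effects was tested in a fit of all 14 libraries, in which 23.8% of 15702 genes passed. Of the 10 genes 1 passed, Atf4, whose age effect exceeded its rmIl22 effect by 0.41 on the log2 scale (SE 0.12, adjusted p = 0.0297, range 0.00472 to 0.0859). That call was lost in 8 of the 14 fits that each left out 1 library, with adjusted p from 0.0505 to 0.0859. For Ern1 the difference was 0.36 (adjusted p = 0.125), and it passed without P14 library 4 (adjusted p = 0.0444) and on median-scaled TPM (0.58, adjusted p = 0.00732). Ddit3 had negative estimates in both comparisons, and these differed by -0.62 (95% interval -1.11 to -0.13, adjusted p = 0.0623, and 0.319 on median-scaled TPM). Among the alternatives it passed only without rmIl22 library 1 (adjusted p = 0.0179). The intervals of the other 7 differences all include 0.

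Variation between libraries of a group was compared between genes. For each gene, the group mean was taken from log2(TPM + 1) in each library, and the remaining deviations were compared for all 45 pairs over 14 libraries, with an exact permutation test that reorders libraries within their groups. After adjustment over the 45 pairs 2 passed, Hspa5 with Xbp1 (Pearson r = 0.98, Spearman rho = 0.94, permutation p = 0.000723 and 0.00082, adjusted p = 0.0293 and 0.0369) and Hspa5 with Pdia4 (r = 0.92, rho = 0.88, permutation p = 0.0013 and 0.00174, adjusted p = 0.0293 and 0.0391). Without rmIl22 libraries 2 and 3, the farthest from the median of Hspa5, r was 0.95 and 0.83. The 6 pairs among Hspa5, Xbp1, Pdia4 and Sdf2l1 had r from 0.80 to 0.98, and from 0.58 to 0.95 in the 11 libraries without rmIl22. The other 4 of these pairs did not pass (adjusted p from 0.0814 to 0.148), and the set of 4 genes was picked after its values were seen. Genes outside the group reached r of 0.950 to 0.971 with Hspa5, above the 0.92 of Pdia4. The share of all genes this close to Hspa5 was not worked out, so the pairs that passed are not shown to be particular to this group.

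Herpud1 with Dnajb9 did not pass the adjustment (r = 0.87, rho = 0.84, permutation p = 0.00651 and 0.0168, adjusted p = 0.0814 and 0.189). Their 8 pairs with Hspa5, Xbp1, Pdia4 and Sdf2l1 had r from -0.21 to 0.25, and from -0.11 to 0.56 without the rmIl22 libraries. A difference between these sets of pairs was not tested. Without P24 libraries 1 and 6 the r of Herpud1 with Dnajb9 was 0.82. In P24 libraries 1 and 2 Ddit3, Herpud1 and Dnajb9 were all below their group means, and in libraries 6 and 8 all were above, by -0.58 to -0.17 and 0.16 to 0.73 on the log2 scale. Xist was low in P24 library 1 and high in the other P24 libraries, so this split does not follow it. In rmIl22 library 2 Hspa5, Xbp1, Pdia4, Sdf2l1 and Ddit3 were above their group means by 0.38 to 0.70, while Herpud1 was below its mean (-0.32). Of 15692 genes, those whose deviations were most like Hspa5 outside the group were Yipf5, Clint1, Tuba1c, Eif1a and Dnajb11, with Pearson r from 0.950 to 0.971 over the 14 libraries as a measure of likeness only. Dnajb11, itself a co-chaperone of BiP, had 84.1 ± 6.64 TPM at P24, 104 ± 12.9 TPM at P14, 92.8 ± 28.6 TPM with rmIl22 and 122 ± 16.1 TPM with PBS. The libraries share a tissue and have similar depth. These correlations describe covariation between libraries, the source of which was not tested, and they do not show control of one gene by another.

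**Figure D4:**
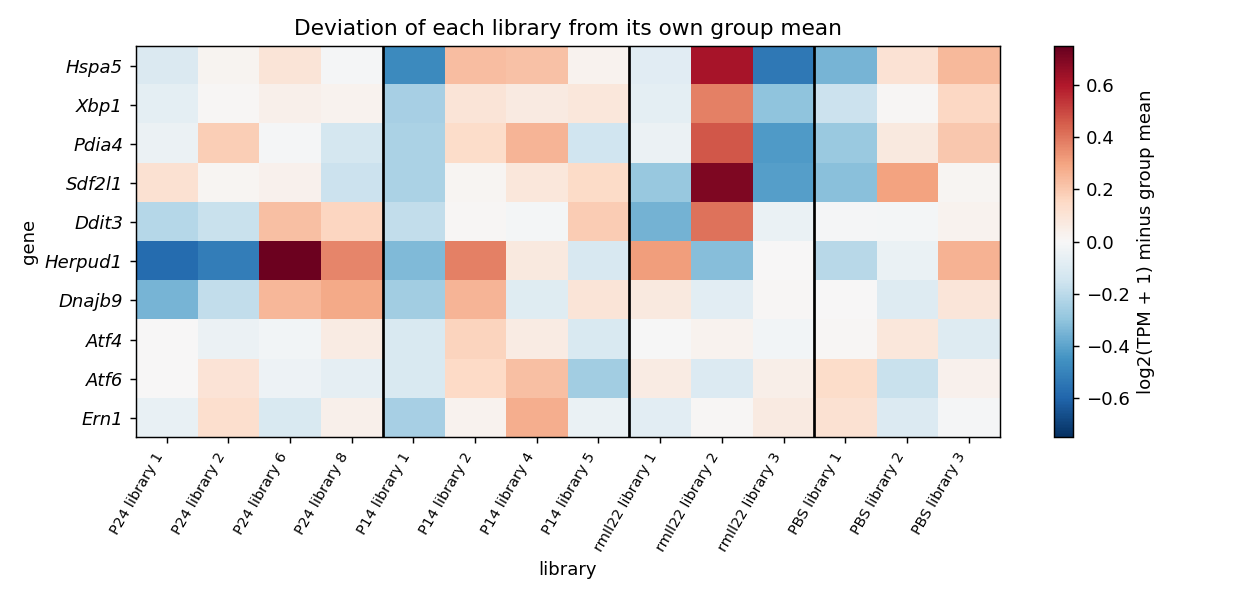
Deviation of each library (columns, grouped as P24, P14, rmIl22 and PBS) from its group mean for each gene (rows), on the log2(TPM + 1) scale, red above and blue below. The rows of Hspa5, Xbp1, Pdia4 and Sdf2l1 are red in rmIl22 library 2 and blue in rmIl22 library 3, and Herpud1 and Dnajb9 are blue in P24 libraries 1 and 2 and red in libraries 6 and 8.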

How the data were processed

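The authors deposited TPM for each gene and library, and tables of both comparisons with log2 fold changes and adjusted p-values. FastQC 0.11.2, STAR 2.4.0f, HTSeq 0.6.1p1, DESeq2 1.14 and mm10 are listed in the submitters' processing notes. No source used here gives the annotation or strand setting. Per the labels' protocols, total RNA was depleted of ribosomal RNA for stranded libraries. Replicates are called biological. P14 and P24 columns carry numbers other than the replicate numbers, so each was assigned to its group only, and libraries are named by column. Of 46882 entries, 27 with symbols turned into dates were left out.

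Depth was worked out from the TPM as whole reads (within 0.01) for all 31189 expressed genes. They count reads assigned to genes, and intervals cover the spread between libraries. Tests were run on log2(TPM + 1), a scale that understates changes of low genes, by limma 3.58.1 (R 4.3.3, intensity trend in the variance). Genes had TPM of at least 1 in at least 4 (age) or 3 (rmIl22 and the difference) libraries. Tests were two-sided, with Benjamini-Hochberg adjustment over all genes tested and a threshold of 0.05. The fits were tested on simulated counts in which few genes changed, equally up and down. That simulation held no shift of the median gene like the one seen with age, so it does not cover that case. Coordinates come from GENCODE (mm10) and promoters from RefSeq (GRCm38.p6).

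The 10 genes, the lists and the motifs were chosen with earlier results of these data known. From each other pathway list, the 2 largest rises and 2 largest falls among called genes are named, or fewer where fewer were called, plus the 5 genes most like Hspa5. Single cell type markers are named outside this rule, after their values were seen. Alternatives were pseudocount 0.1, no filter, median-scaled TPM (each library divided by its median over the genes tested), no trend, a fit of all 14 libraries, each library left out, a replicate block and the authors' tables. A voom fit on recovered reads and a term for Xist level (above or below 1 TPM) were chosen after seeing the data. Reads of paired libraries of a group all differed beyond sampling noise.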

Additional observations from a re-analysis of the deposited data

Results flagged for a closer look

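In 20 groups of 4 libraries (10 genes at P24 and at P14), 1 library lay farther from its group than Dixon's critical value at the 95% level allows. Chance gives about 1 in 20 such groups. Xbp1 stood at 103.723 TPM in P14 library 1, against 129 to 132 TPM in the other P14 libraries, with a gap that made up 0.904 of the range. The same library had the lowest value of its group for Hspa5, Ddit3, Atf4, Ern1, Herpud1, Dnajb9, Sdf2l1 and Pdia4. Without it, the age difference of Xbp1 no longer passed the test (log2 fold change 0.18, adjusted p = 0.104).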

How the results depend on the processing

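For P24 against P14, 2 of the 7 called members, Ddit3 and Atf4, were called under every alternative. Genes called were 4323 higher and 4139 lower on median-scaled TPM and 4246 and 4264 with voom, against 2146 and 6400, and the authors' table called 4748 higher. Median-scaled TPM, voom and the authors' table each left 1 member lower, against 4. Leaving out single libraries gave 1 to 3 members higher. Sdf2l1 turned to 0.21 (median-scaled TPM), 0.20 (voom) and 0.22 (authors' table), and Hsp90ab1 to 0.0028 and 0.01 (median-scaled TPM and authors' table). For rmIl22 against PBS, genes called were 19 higher and 79 lower with no filter, 230 and 828 in the fit of all 14 libraries, 42 and 80 with the Xist term, 371 and 731 in the authors' table, and 1 to 455 higher and 3 to 874 lower without single libraries, against 64 and 325. Members lower were 1 in the fit of all 14 libraries and 0 to 2 without single libraries. Without single libraries the log2 fold change ran from -0.0028 to 0.34 for Xbp1, -0.029 to 0.12 for Atf6 and -0.025 to 0.081 for Ern1, which was -0.054 with the Xist term. For the difference of effects, median-scaled TPM gave 2214 genes and 2 members higher, and turned Herpud1 to 0.12, Dnajb9 to 0.070 and Pdia4 to 0.11. Single libraries left out gave 1640 to 3889 genes lower, 0 to 2 members higher and 0 to 1 lower, with ranges of -0.091 to 0.49 for Hspa5, -0.074 to 0.27 for Xbp1, -0.014 to 0.16 for Atf6, -0.37 to 0.067 for Herpud1, -0.013 to 0.54 for Sdf2l1 and -0.35 to 0.091 for Pdia4. The cause of these changes was not tested. With the replicate block, rmIl22 against PBS called 59 genes higher and 221 lower and 0 members. Samples of the same number shared only that number (correlations of -0.07, 0.33 and -0.05), and 1 of 3 rmIl22 libraries correlated best with its own number. No paired analysis was possible for age because the P24 and P14 columns do not carry the replicate numbers of the labels. With 3 libraries a group, the rmIl22 comparison leaves wide intervals.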
